A study of Mus musculus with 8 samples.

Results

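The genes described here encode the eukaryotic translation initiation factors and the proteins that control them. They were taken by name, as every non-control probe of the array whose gene name begins with Eif followed by a digit from 1 to 6, leaving out Eif2c names, which are an older name for Argonaute genes. This gave 54 genes and 79 probes, of 36163 gene names and 55681 probes on the array. Translation of most mRNAs begins when eIF4F, made of the cap-binding protein eIF4E, the scaffold eIF4G and the RNA helicase eIF4A, binds the 5′ cap and recruits the small ribosomal subunit, which already carries eIF3, eIF1, eIF1A and the initiator methionyl-tRNA held by eIF2. The complex scans to the start codon, eIF5 and eIF5B let the large subunit join, and eIF2 is recharged with GTP by eIF2B. The cell slows this process at a pair of points, by phosphorylation of eIF2 through the eIF2 kinases and by sequestration of eIF4E through the eIF4E-binding proteins. Argonaute (Ago) proteins, guided by miRNAs, bind mRNAs in the RNA-induced silencing complex and repress their translation or speed their decay, so the question asked of these genes was how much of their mRNA was found with Ago as ES cells left pluripotency.

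Mouse ES cells of the E14Tg2A line, of strain 129/Ola, were studied at 4 stages of neural differentiation, with no genetic change in any of them. The first stage was undifferentiated ES cells kept in serum and LIF (0 days in vitro). Epiblast-like aggregates (ELA) were grown in suspension in minimal medium without LIF for 2 days. Neural progenitor cells (NPC) were taken at 6 days after adherent culture on laminin. Neural precursors (NPC/Neu) were taken at 10 days, after 4 further days in medium without the B27 supplement. At each stage 1 array received total RNA and 1 array received RNA immunoprecipitated from the cytosolic fraction with the anti-pan Ago antibody 2A8 (Ago–RNA), and each array held a pool of 3 independent experiments of a single cell line. Ago enrichment (E) is log2 of the Ago–RNA signal over the total RNA signal of the same stage, and it says nothing of how much Ago was recovered.

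There were 8 arrays and 1 array per condition, so no difference below has a replicate and no p-value is given. The only error available is the spot SD, from 246 probes printed 10 times on each array. It was 0.15 to 0.16 on the log2 scale for a signal, 0.21 to 0.23 for E, 0.31 for a change in E and 0.22 for a change in total RNA, and it covers spots of an array and not cultures or immunoprecipitations. Between 53.4% and 61.2% of the spots of an array were well above background. The ES Ago–RNA array stood apart in brightness. Its upper quartile of the mean signal was 3039, against 1060 to 1774 on the other 7 arrays. Some of the counts that rest on it, with values of the genes most moved, are therefore also given under a second scaling. Counts given without a named scaling are from quantile normalization alone. All arrays lay on the same slide, with the ES and NPC arrays in one row and the ELA and NPC/Neu arrays in the other, so row and these stage differences cannot be told apart. The stage labels were checked in total RNA from ES to NPC/Neu, where a change of at least 1 on the log2 scale was seen downward in 6 of 6 naive pluripotency markers (Nanog, Klf4, Esrrb, Zfp42, Tbx3 and Nr0b1) and upward in 4 of 4 neural progenitor markers (Sox1, Pax6, Nes and Hes5) and in 3 of 3 neuronal markers used (Tubb3, Dcx and Stmn2). From ES to ELA the 6 naive markers had already fallen by at least 1, and 2 of 4 primed epiblast markers had risen that far (Fgf5 by 2.81 and Dnmt3b by 1.32), while Pou3f1 and Otx2 changed by 0.82 and 0.53. By NPC/Neu Fgf5, Pou3f1 and Dnmt3b were lower than in ES cells by at least 1. Some markers of other cell types also rose by at least 1, namely 2 of 4 mesendoderm markers (T and Eomes), 1 of 2 glial markers used (Olig2) and 1 of 3 fibroblast markers (Col1a2). The summed total RNA signal of the mesendoderm list went from 846 in ES to 3476 in NPC/Neu. That of the glial list went from 304.2 to 829.3. The fibroblast sum was 6417 in ES, 16678 in ELA and 2213 in NPC/Neu. Its lower value in NPC/Neu came from Thy1, which changed by -5.19 from ES, while Col1a2 rose by 1.70 and Col1a1 changed by -0.04. The part of other cells in the results below was not tested.

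Of the 79 probes, 46 lay in a 3′ UTR, 21 in a coding sequence and 10 across both or in different parts of different transcripts, and 2 could not be placed in a coding transcript. The array measures a transcript through a window of 60 bases, so the sequences of a few windows are shown, written 5′ to 3′ on the strand of the mRNA, for subunits of eIF3 that differed in Ago enrichment although they make 1 complex. Each lies in the coding sequence. The Eif3c window is at chr7:133707950-133708009, that of Eif3e at chr15:43094774-43094833, and that of Eif3g at chr9:20699095-20699154, all on the minus strand of mm9, while that of Eif3i joins 2 exons between chr4:129272626-129274145 on the minus strand.
Eif3c: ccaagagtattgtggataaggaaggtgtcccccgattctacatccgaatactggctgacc
Eif3e: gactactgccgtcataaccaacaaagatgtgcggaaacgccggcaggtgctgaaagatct
Eif3g: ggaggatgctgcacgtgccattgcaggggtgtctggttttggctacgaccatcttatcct
Eif3i: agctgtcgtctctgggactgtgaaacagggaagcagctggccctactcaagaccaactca
The gamma subunit of eIF2 has a copy on the X chromosome and one on the Y chromosome. One Eif2s3x window, which spans a splice junction in chrX:91436226-91441634 on the minus strand, is shown with the stretch of the Eif2s3y coding sequence most like it, because the pair shared 56 of 60 bases and the probe may take up both mRNAs. Capitals mark the 4 bases that differ.
Eif2s3x: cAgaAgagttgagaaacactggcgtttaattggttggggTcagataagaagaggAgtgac
Eif2s3y: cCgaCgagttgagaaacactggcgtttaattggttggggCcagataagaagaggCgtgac

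In ES cells the initiation factor mRNAs were spread widely about the array's median, with the scaffold and several eIF3 mRNAs far above it in the Ago–RNA. The median E of the 54 genes was 0.22 (quartiles -0.41 and 0.83), against 0.04 over 28257 genes measured. E was at least 1, a doubling in Ago–RNA over total RNA, for 9 of 54 genes or 16.7%, where 8.59% of all genes reached it. These were Eif4g1, Eif4ebp3, Eif4g3, Eif3c, Eif4h, Eif3d, Eif3b, Eif3a and Eif4b. E was -1 or lower for 1 gene, Eif3i, where the background was 9.75%. In ELA the spread closed to an SD across the genes of 0.39, from 0.86 in ES cells, while over all genes it went from 0.79 to 0.53. The median E was -0.05, no gene of 53 was at 1 or above (background 3.26%), and Eif3i alone was at -1 or lower (background 2.94%). In NPC the SD was 0.64 and the median -0.09, with 4 genes at 1 or above (Eif4g1, Eif4g3, Eif4ebp3 and Eif2ak3; background 4.72%) and 2 at -1 or lower (Eif3i and Eif2s3y; background 5.21%). In NPC/Neu the SD was 0.93 and the median 0.02, with 9 genes at 1 or above (background 9.67%) and 7 at -1 or lower (background 10.3%). Most Ago–RNA signals were above the binding threshold T1, at 7.81 on the log2 scale, with 73 of 79 probes above it in ES cells and 75 of 78 in NPC/Neu. T1 is a cut on brightness alone, and the Eif3i probe passed it in ES cells with a signal of 13.06 and E of -1.62. The share of all probes above T1 was not computed, so these counts do not set the initiation factor mRNAs apart.

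These values depended on how the arrays were scaled. With the background-corrected signal that the scanner software itself gives, divided by each array's upper quartile and not quantile normalized (upper-quartile scaling below), the median E in ES cells was -0.17 for the initiation factor genes and -0.38 for all genes, so the gap between them was 0.21 against 0.19 above. The number of genes at 1 or above was then 6 in place of 9 (10.1% of all genes) and the number at -1 or lower was 9 in place of 1 (26.1% of all genes). Eif4g1, Eif4g3 and Eif4ebp3 were among the 6, joined by Eif2ak3, Eif5a2 and Eif5b. The eIF3 genes, Eif4h and Eif4b were below 1 under this scaling, and Eif3d turned from 1.26 to -0.13. In all, E in ES cells changed sign for 10 of the 54 genes. From positive to negative went Eif1 (-0.67), Eif2b2 (-0.03), Eif2b4 (-0.17), Eif3d, Eif3e, Eif3l, Eif4a1, Eif4e1b (-0.46), Eif4ebp1 and Eif4g2 (-0.16), while no gene went from negative to positive. The ES–ELA change in E changed sign for 9 of 53 genes, which were Eif1, Eif2s1, Eif2s3x, Eif3g, Eif3j, Eif3l, Eif4a1, Eif4ebp1 and Eif4g2. The values of single genes below are from quantile normalization unless another scaling is named. With Ago–RNA and total RNA arrays normalized apart, 15 genes were at 1 or above in ES cells, where 13.7% of all genes were, and the median was 0.53.

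**Figure D1:**
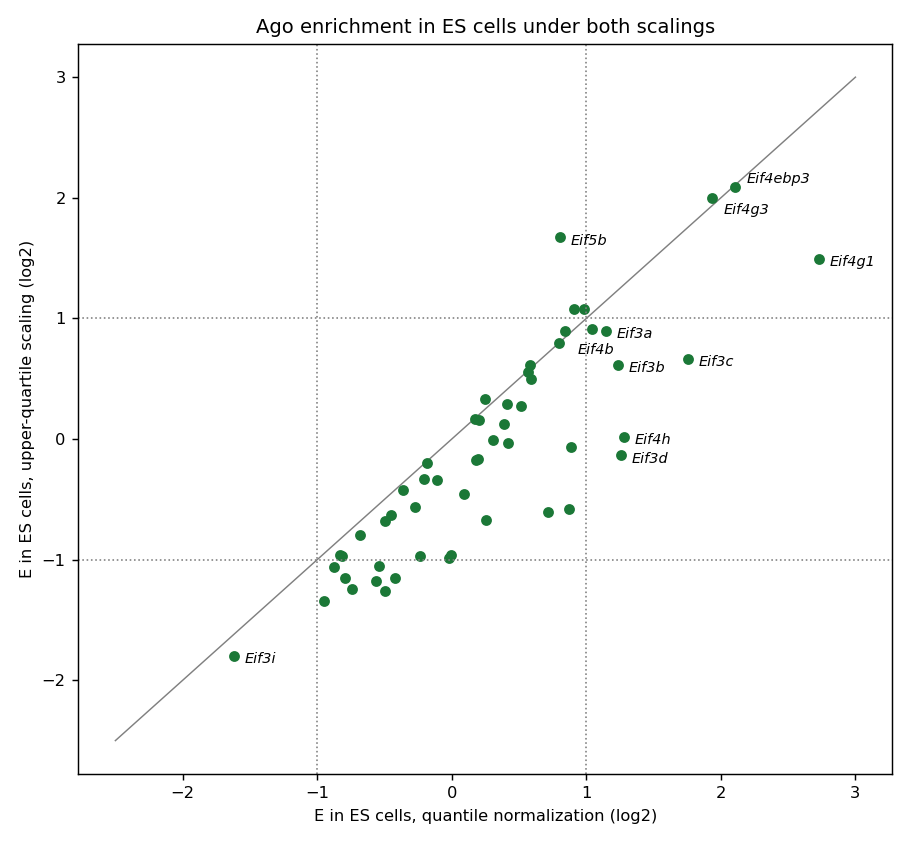
Ago enrichment E of the 54 genes in ES cells (log2), with quantile normalization on the x axis and with upper-quartile scaling on the y axis. Each point is a gene, the solid line marks equal values and the dotted lines mark 1 and -1; Eif4g3 and Eif4ebp3 lie near the line, while Eif4g1, Eif3c, Eif4h and Eif3d lie well below it.

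From ES to ELA the Ago enrichment of the enriched initiation factor mRNAs dropped while their total RNA changed less. The change in E was -1 or lower for 8 of 53 genes, where 5.92% of all genes fell that far, and at least 1 for 0 of 53, where the background was 6.86%. The 8 genes were Eif4g1, Eif3c, Eif4ebp3, Eif3a, Eif3d, Eif4h, Eif4g3 and Eif3b, all of them from the 9 with E of at least 1 in ES cells, and their total RNA changed by between -0.18 (Eif3a) and 0.48 (Eif4g3). The median change was -0.26 over the initiation factor genes and -0.02 over all genes. All 9 genes were lower in ELA, as were 95.0% of the 2414 genes with E of at least 1 in ES cells. A decrease of at least 1 was seen in 88.9% of the 9 and in 45.9% of the 2414; the ES arrays enter both E and its change, so a decrease is partly set by the choice of high values. Between NPC and NPC/Neu E was higher at the later stage for 9 of the 9 and for 86.8% of the 2414. E in NPC/Neu was again at least 1 for 7 of the 9, or 77.8%, and for 57.4% of the 2414. Under the upper-quartile scaling the ES–ELA change was -1 or lower for 3 genes (Eif3a, Eif4ebp3 and Eif4g3; 10.3% of all genes) and at least 1 for 3 genes (Eif1ax, Eif2b2 and Eif2s2; 19.6% of all genes).

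**Figure D2:**
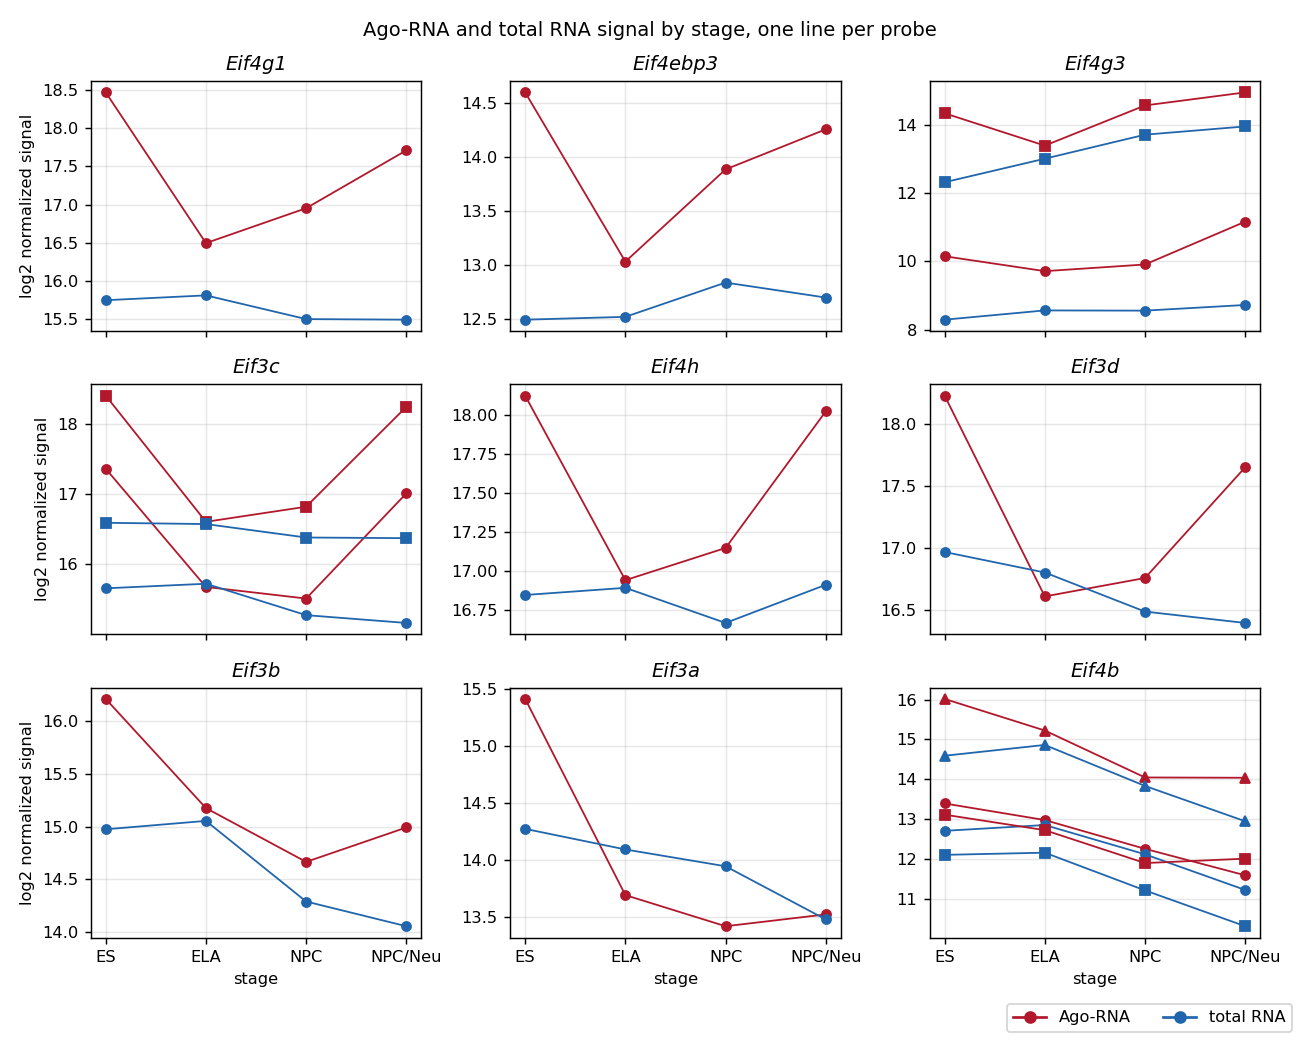
Log2 normalized signal (y axis) of Ago–RNA in red and total RNA in blue at the 4 stages (x axis) for the 9 genes with E of at least 1 in ES cells, 1 panel per gene with its own scale and 1 line per probe and RNA, each point 1 array. The Ago–RNA line drops from ES to ELA in every panel while the total RNA line moves less, and except in Eif3a, Eif3b and Eif4b it then climbs back by NPC/Neu.

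The eIF4F group held Eif4g1, the mRNA with the highest E of the 54 genes in ES cells, NPC and NPC/Neu under quantile normalization; in ELA Eif2b2 and Eif4g3 were above it, and with upper-quartile scaling Eif4ebp3 (2.09), Eif4g3 (2.00) and Eif5b (1.67) were above it in ES cells. It encodes the main eIF4G scaffold, which links the cap to eIF3 and to the poly(A)-binding protein, and lies at chr16:20668386-20692957 on the plus strand of mm9. Its 3′ UTR probe had Ago–RNA signals of 18.47, 16.49, 16.95 and 17.71 on the log2 scale in ES, ELA, NPC and NPC/Neu, and total RNA signals of 15.74, 15.81, 15.50 and 15.49. The Ago–RNA was thus highest in ES cells and lowest in ELA, while total RNA stayed between 15.49 and 15.81. E was 2.73, 0.69, 1.45 and 2.22 at the 4 stages, and the ES–ELA change was -2.04. Under the upper-quartile scaling E in ES cells was 1.49 and the change -0.91. The paralog Eif4g3 had E of 1.94, 0.77, 1.10 and 1.72 as the mean of 2 probes, which differed in course. Its 3′ UTR probe went from 2.02 in ES to 0.38 in ELA and 1.00 in NPC/Neu, and its coding sequence probe from 1.86 to 1.15 and 2.44. The study's methods call release from Ago at E of at least 2 at the first stage, at most 0.5 at the next, and a drop of at least 1.5. Between ES and ELA the 3′ UTR probe of Eif4g3 was the only initiation factor probe released. Of the 55681 probes on the array, 106 probes of 100 genes were. No initiation factor probe was called loaded at that step, where 74 of all probes were, and none was called at the other transitions. Among all probes 48 were released and 16 loaded from ELA to NPC, and 16 and 20 from NPC to NPC/Neu. With so few called, these counts do not set the initiation factor mRNAs apart. Eif4g1 and Eif4ebp3 missed the criteria only by their E in ELA, of 0.69 and 0.51. The study relaxed that cut for later analyses, and the counts here use the strict one. Eif4g2, which encodes an eIF4G relative without the eIF4E-binding site, had E of 0.19, 0.05, -0.08 and -0.58, and its probe did not match the mm9 sequence in full.

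The other eIF4 mRNAs divided by function in a less regular way. The helicase mRNA Eif4a1 had E of 0.87, 0.31, 0.54 and 0.83, with -0.58 in ES cells under upper-quartile scaling, and its paralog Eif4a2 had -0.50, 0.29, 0.68 and 0.24. The pair thus lay on opposite sides of 0 in ES cells, but both were negative with upper-quartile scaling, where Eif4a2 had -0.68. Eif4a3, which encodes a core protein of the exon junction complex, had 0.59, -0.08, 0.05 and 0.19, and its probe is also near-identical to 2 predicted genes. Both proteins that stimulate the helicase had enriched mRNAs. Eif4h had E of 1.28, 0.05, 0.48 and 1.11, with 0.02 in ES cells under the other scaling, and Eif4b had 1.04, 0.35, 0.35 and 1.05 over 3 probes that ranged from 0.69 to 1.43 in ES cells. The mRNAs of the cap-binding proteins themselves had E below 1 at each stage measured under quantile normalization. Between 3.26% and 9.67% of all genes reached 1 at a stage, so most genes did the same. Eif4e had -0.68, -0.40, -0.83 and -1.08, and Eif4e2, a cap-binding protein that represses translation, had -0.74, -0.39, -0.36 and -0.49. Eif4e3 had 0.51, 0.20, 0.21 and -0.37. Eif4e1b, an oocyte-type eIF4E, was dim, with 1 of 2 probes above background and that on 3 arrays, and had 0.09, 0.45 and 0.13 in ES, NPC and NPC/Neu with no value in ELA because of an irregular spot.

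The eIF4E-binding proteins, which compete with eIF4G for eIF4E, had positive E for 4 of 4 genes at all 4 stages under quantile normalization, where 52.7%, 48.5%, 51.8% and 53.0% of all genes had positive E in ES, ELA, NPC and NPC/Neu. Eif4ebp3 had E of 2.11, 0.51, 1.05 and 1.56, but its probe lies in sequence shared with Ankhd1 transcripts, so the signals of the 2 genes cannot be told apart. Eif4ebp1 had 0.89, 0.14, 0.56 and 0.57, Eif4ebp2 had 0.41, 0.27, 0.58 and 0.72, and Eif4enif1, the eIF4E transporter that brings eIF4E to P-bodies, had 0.80, 0.06, 0.42 and 0.48. All 4 were lower in ELA than in ES cells, by changes of -1.60 to -0.15, as were 51.3% of all genes. With upper-quartile scaling 3 of 4 had positive E in ES cells and 3 of 4 were lower in ELA (36.3% and 42.6% of all genes), the exception being Eif4ebp1 with E of -0.07 in ES cells and a change of 0.11.

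The 13 eIF3 genes, whose products form the largest initiation factor, did not share a level of Ago enrichment. In ES cells E ran from -1.62 for Eif3i to 1.75 for Eif3c, with 4 genes at 1 or above, 1 at -1 or lower and a median of 0.31. Eif3a, Eif3b, Eif3c and Eif3d were the 4 enriched, and Eif3g, Eif3i, Eif3h, Eif3k, Eif3m and Eif3f had values below 0. With upper-quartile scaling 9 of the 13 were below 0 in place of 6, Eif3d, Eif3e and Eif3l having turned. With the RNA kinds normalized apart 5 were, Eif3f then having 0.28. Of all genes, 47.3% were below 0 with quantile normalization, 63.7% with upper-quartile scaling and 41.1% normalized apart, so the counts moved with the whole array. Eif3g ranged from -0.99 to 0.10 over the settings tried. The 2 Eif3c probes, the first of them the window shown above, had Ago–RNA signals over the 4 stages of 17.36, 15.68, 15.51 and 17.01 for the coding sequence probe and of 18.40, 16.60, 16.82 and 18.24 for the 3′ UTR probe. Their total RNA signals were 15.66, 15.72, 15.28 and 15.17 for the first and 16.59, 16.57, 16.38 and 16.37 for the second. Both probes were thus high in Ago–RNA in ES and NPC/Neu and level with total RNA in ELA, and E of the gene was 1.75, -0.01, 0.34 and 1.85. Eif3c was the only initiation factor gene whose E rose by at least 1 between NPC and NPC/Neu (1.52; background 2.37%), and under the upper-quartile scaling, where Eif5b joined it, E of Eif3c in ES cells was 0.66.

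Eif3d, the subunit that can itself bind the cap, had Ago–RNA signals of 18.23, 16.61, 16.76 and 17.65 and total RNA signals of 16.97, 16.80, 16.49 and 16.40. E was 1.26, -0.19, 0.27 and 1.25, a course like that of Eif3c, although the ES value was -0.13 under the other scaling. Eif3b, a core scaffold subunit, had 1.24, 0.12, 0.38 and 0.94. Eif3a, the largest subunit, had Ago–RNA signals of 15.42, 13.69, 13.42 and 13.52 and total RNA signals of 14.27, 14.09, 13.94 and 13.48. It did not return in NPC/Neu, with E of 1.14, -0.40, -0.53 and 0.04, and its ES value was 0.90 under the other scaling. Eif3l had 0.71, -0.09, 0.23 and 0.94, with -0.61 in ES cells under the other scaling. Eif3e had 0.31, -0.35, -0.997 and -0.95, and its change from ES to NPC/Neu of -1.26 was the most negative of 5 genes at -1 or lower, the others being Eif2s3y, Eif5a2, Eif3a and Eif5a (background 4.8%), while no gene rose by 1 (background 4.43%).

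Eif3i stood at the other end. This WD-repeat subunit had Ago–RNA signals of 13.06, 13.58, 13.06 and 11.88 and total RNA signals of 14.68, 14.62, 14.46 and 13.92, so total RNA was above Ago–RNA at all 4 stages. E was -1.62, -1.05, -1.40 and -2.04, and in ES cells it was -1.80 under the upper-quartile scaling. Eif3g, the RNA-binding subunit, had -0.02, -0.36, -0.45 and -0.82, Eif3h had -0.42, -0.14, -0.65 and -0.70, and Eif3m had -0.54, -0.22, -0.51 and -0.34. Eif3k had -0.50, -0.29, 0.37 and 0.20. Eif3f, a subunit with an MPN domain, had Ago–RNA signals of 14.59, 15.73, 15.85 and 14.53 and total RNA signals of 14.71, 15.32, 15.02 and 15.42. Its E climbed from -0.11 to 0.41 and 0.83 and then was -0.89 in NPC/Neu, a change of -1.72. Eif3j, a loosely bound subunit, had a mean E of 0.56, 0.55, -0.10 and 0.14, but its 3 probes ranged from 0.12 to 1.26 in ES cells, and 2 of them match or nearly match the predicted gene Gm9781.

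**Figure D3:**
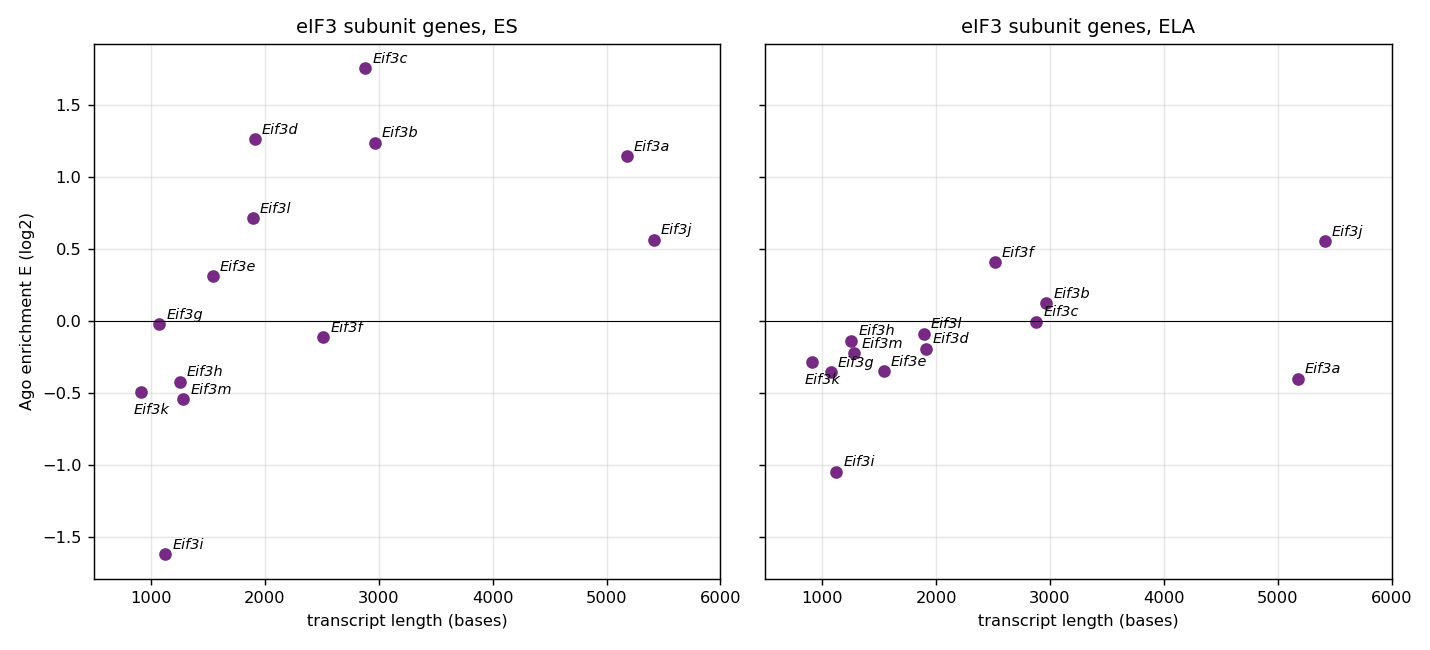
Ago enrichment E (log2, y axis) of the 13 eIF3 genes against the length of the transcript in bases (x axis) in ES cells, left, and in ELA, right, each point a gene, with quantile normalization. In ES cells the short mRNAs of Eif3i, Eif3k, Eif3h and Eif3m lie below 0 and Eif3c, Eif3b, Eif3d and Eif3a lie above 1, while in ELA 12 of the 13 lie between -0.40 and 0.55.

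The eIF3 mRNAs with high and low E differed in length, which the choice of genes did not use. Spearman's rho between E in ES cells and transcript length was 0.70 over the 13 eIF3 genes, which share the same 2 arrays, 0.29 over 53 initiation factor genes with a length, and 0.55 over 17523 genes. In ES cells initiation factor mRNAs followed the same order as all genes. Their median E in ES cells was -0.30 for 10 genes under 1500 bases, 0.18 for 23 genes from there to 3000 bases, and 0.57 for 20 longer ones, where all genes had -0.28, 0.01 and 0.48. The share of genes at 1 or above was 10.0% (1 gene) of the 10 against 0.868% of all genes of that length, 17.4% of the 23 against 4.33% of all genes of that length, and 20.0% of the 20 against 23.1%. At the neural stages the initiation factor genes did not keep this order. Their medians from the short to the long class were -0.32, 0.05 and -0.18 in NPC, where all genes had -0.08, 0.00 and 0.25. In NPC/Neu the initiation factor genes had -0.19, 0.13 and 0.07, where all genes had -0.15, 0.05 and 0.48. Transcript length thus moved with E in ES cells, and its part in E was not tested.

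The mRNAs of eIF2, which brings the initiator tRNA, of its exchange factor eIF2B and of the eIF2 kinases had median E of -0.33, 0.18 and 0.71 in ES cells. All were below 1 under quantile normalization, but only 8.59% of all genes reached 1, so this does not set them apart. Eif2ak3 had 1.08 with upper-quartile scaling. With the RNA kinds normalized apart Eif2ak3 had 1.45 and Eif2ak4 had 1.31. Among the 6 genes of eIF2 and the related tRNA carriers, E in ES cells ran from -0.83 for Eif2d to 0.17 for Eif2a, and in NPC all 6 were below 0, with a median of -0.84. In ES cells 5 of the 6 were below 0 under quantile normalization and upper-quartile scaling and 3 with the RNA kinds normalized apart, where Eif2s3x had 0.31 and Eif2s3y 0.24. In NPC all 6 were below 0 under these 3 scalings. Of all genes, 47.3%, 63.7% and 41.1% were below 0 in ES cells under the 3 scalings, in the order named. In NPC these shares were 48.2%, 57.8% and 39.5%. Eif2s1, the alpha subunit that the kinases phosphorylate, had -0.45, -0.48, -0.87 and -0.32. Eif2s2, the beta subunit, had -0.79, 0.05, -0.84 and -1.08 as the mean of 2 probes that differed in level. Its 3′ UTR probe had -1.05, -0.35, -1.16 and -1.70. The other, which did not match the mm9 sequence in full, had -0.53, 0.46, -0.53 and -0.47, so the ELA value above 0 rests on it. The 3′ UTR probe of Eif2s3y had Ago–RNA signals of 13.82, 13.62, 12.20 and 12.05 and total RNA signals of 14.03, 14.09, 13.66 and 13.50. Its Ago–RNA was lower at both neural stages, and E was -0.21, -0.47, -1.46 and -1.45. Eif2s3x had -0.01, -0.10, -0.45 and 0.09, but its probes ranged from -0.75 to 0.72 in ES cells. The lowest of them was above background on 1 array only, and the window shown above had 0.01, -0.32, -0.99 and -0.37. The X and Y copies can be set apart by their 3′ UTR probes, of which that of Eif2s3x had 0.72, 0.59, 0.31 and 1.06.

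All 4 eIF2 kinase mRNAs had positive E in ES cells, as did 52.7% of all genes. They were also positive with upper-quartile scaling and with the RNA kinds normalized apart, where 36.3% and 58.9% of all genes were. All 4 transcripts were in the class of 3000 bases or more, whose median over all genes was 0.48. Eif2ak3 encodes PERK, the kinase of endoplasmic reticulum stress, and had Ago–RNA signals of 12.16, 11.56, 11.37 and 12.65 and total RNA signals of 11.18, 11.34, 10.34 and 11.06. E was 0.99, 0.22, 1.02 and 1.59, highest in NPC/Neu. Eif2ak4, the amino acid sensor GCN2, had 0.84, -0.14, 0.30 and 0.62, Eif2ak2, the double-stranded RNA sensor PKR, had 0.58, 0.09, -0.26 and 0.16, and Eif2ak1, the heme-regulated kinase, had 0.24, 0.01, 0.28 and 0.00. Of the 5 eIF2B subunit genes, Eif2b2 had the highest E in ES cells and Eif2b1 the lowest under quantile normalization, while with upper-quartile scaling Eif2b2 had -0.03 and Eif2b5, at 0.16, was the highest. Eif2b2 had 0.42, 0.99, -0.23 and -0.34, and its ELA–NPC change of -1.22 was 1 of 2 of -1 or lower among the initiation factor genes (background 3.34%). No gene rose by 1 at that step (background 2.68%). Eif2b1 had -0.87, -0.47, -0.63 and -1.32. Eif2b3, Eif2b4 and Eif2b5 had E between -0.64 and 0.53 at all 4 stages, with 1 of the 2 Eif2b3 probes missing in NPC/Neu Ago–RNA.

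The mRNAs of the factors that select the start codon, join the subunits or act on the ribosome afterwards were mixed. Among 7 genes of start codon selection and subunit joining, Eif5b, the GTPase of subunit joining, had the highest E in ES cells and Eif1ad the lowest, at 0.80 and -0.81. The Eif5b probe was dim, above background on 6 arrays, and had 0.80, 0.46, 0.33 and 1.08, with values from 0.77 to 2.53 in ES cells over the settings tried and 1.67 with upper-quartile scaling. Eif1ax, which encodes eIF1A from the X chromosome, had -0.56, 0.34, -0.03 and -1.06, and its change between NPC and NPC/Neu of -1.03 stood with that of Eif3f as 1 of 2 of -1 or lower at that step (background 4.07%). Its relative Eif1a had -0.28, -0.12, -0.05 and 0.14. Eif1 and its paralog Eif1b, which help the scanning complex reject wrong codons, had 0.25 and -0.36 in ES cells, but both were negative with upper-quartile scaling, and Eif5 had 0.39, 0.07, -0.57 and -0.49. Eif5a2, the less widely expressed paralog of the elongation factor eIF5A, had 0.91, 0.60, -0.43 and -0.27, and its ELA–NPC change was -1.04. Eif5a had -0.24, -0.23, -0.50 and -1.34, with -0.97 in ES cells under upper-quartile scaling, so the paralogs were on opposite sides of 0 in ES cells and ELA. Eif6, which keeps the large subunit from joining too early, had -0.95, -0.42, -0.52 and -0.56, with 3 probes between -0.99 and -0.89 in ES cells.

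**Figure D4:**
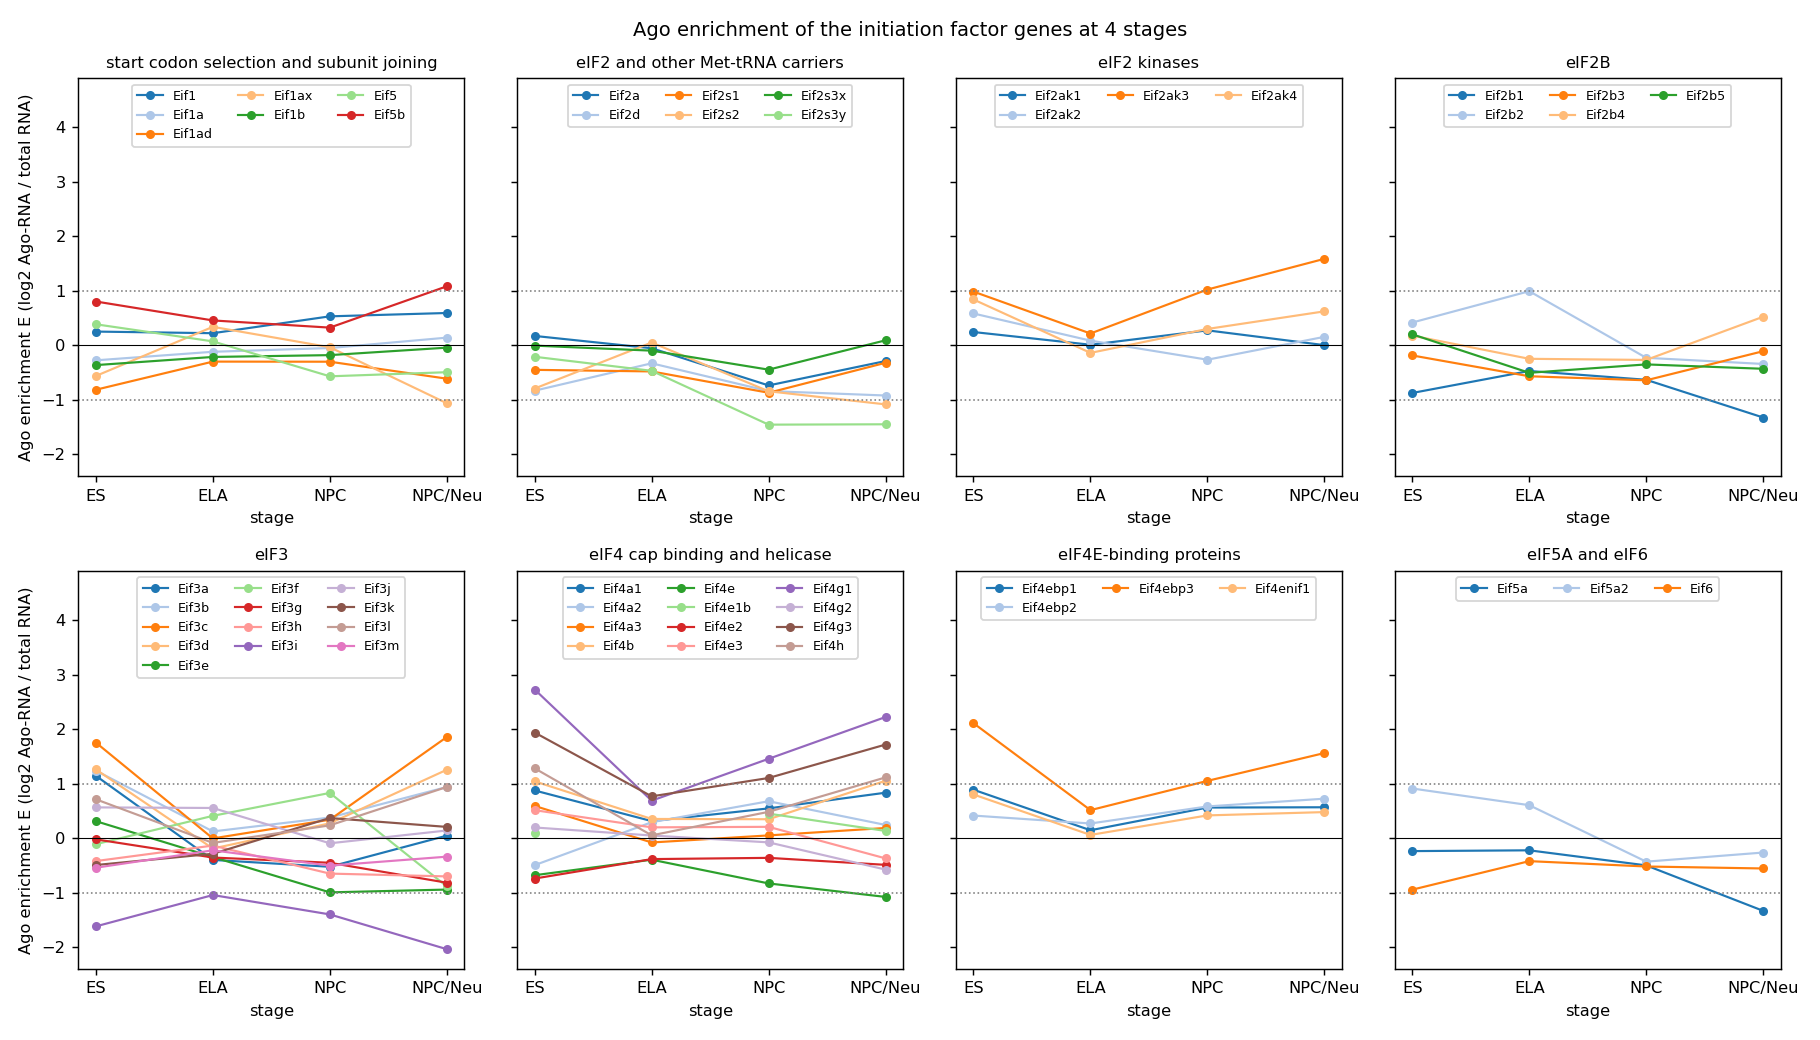
Ago enrichment E (log2 Ago–RNA over total RNA, y axis) of the 54 genes at the 4 stages (x axis), 1 panel per role and 1 line per gene, with dotted lines at 1 and -1; Eif4e1b has no value in ELA. The lines come together in ELA and spread again by NPC/Neu, with Eif4g1 on top and Eif3i at the bottom in ES cells.

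In total RNA the initiation factor mRNAs changed little from ES to ELA and were mostly lower by NPC/Neu. The median change was -0.07 from ES to ELA, -0.24 from ELA to NPC and -0.14 from NPC to NPC/Neu, against 0.00, -0.01 and -0.03 over all genes. From ES to ELA 1 of 53 genes, Eif1b, rose by at least 1 (background 4.14%) and 0 fell that far (background 4.13%). From ELA to NPC, 2 genes, Eif2ak1 and Eif4ebp1, fell by at least 1 (background 8.76%) and none rose (background 9.41%). From NPC to NPC/Neu, Eif4ebp1 fell again (background 3.54%) and no gene rose (background 4.89%). Over the whole course from ES to NPC/Neu, 11 of 54 genes fell by at least 1, or 20.4%, where 14.8% of all genes did, and 3 rose, where 14.9% did. The median change was -0.55 over the initiation factor genes and -0.04 over all genes, and 39 of 54 were lower, or 72.2%, against 52.4% of all genes. Under the upper-quartile scaling the median was -1.18 and 32 genes fell by at least 1, where 26.7% of all genes did. In a bulk culture, fewer cells of a type and less RNA per cell cannot be told apart.

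Eif4ebp1 had the largest decrease. This translational repressor, at chr8:28370799-28386128 on the plus strand, had total RNA signals of 16.06, 15.84, 14.62 and 13.18 in ES, ELA, NPC and NPC/Neu. Each stage was below the one before, and the change over the course was -2.88, so the ES signal was 7.35 times that in NPC/Neu. The paralog Eif4ebp2 had 13.94, 14.01, 13.77 and 13.82 and Eif4ebp3 had 12.49, 12.52, 12.84 and 12.70; neither moved far. Among the mRNAs of eIF2 and eIF2B, Eif2b3 changed by -2.03, Eif2d by -1.79, Eif2a by -1.76, Eif2b1 by -1.15 and Eif2s3x by -1.06. Eif2b3 had probe signals of 12.66 and 12.99 in ES and 10.60 and 10.99 in NPC/Neu, so its probes moved alike. Eif1a changed by -1.93, Eif4b by -1.64, Eif2ak1 by -1.25, Eif3j by -1.24 and Eif4a2 by -1.20. The 2 Eif3j probes that match or nearly match Gm9781 changed by -1.44 and -1.96, and its other probe by -0.33. The decrease of Eif3j thus rests on probes that may read another gene. For Eif4a2 the probes differed, from 12.67 to 10.90 at the coding or alternative 3′ UTR probe and from 15.43 to 14.80 at the 3′ UTR end.

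A few initiation factor mRNAs went the other way. Eif1b, at chr9:120401724-120404445 on the plus strand, had total RNA signals of 12.84, 13.95, 14.84 and 15.02, higher at each stage than at the one before, and ended 4.52 times above ES cells. Its E stayed between -0.36 and -0.04, so its Ago–RNA followed its total RNA. Eif4e3, which encodes an atypical cap-binding protein, had 7.23, 8.18, 8.66 and 8.93, a change of 1.70 from a dim start where the offset of the background correction makes changes smaller. Eif4g3 changed by 1.03, with its 3′ UTR probe going from 12.32 to 13.95 and its coding sequence probe from 8.30 to 8.73. The kinase mRNAs split, with Eif2ak4 changing by 0.94 and Eif2ak1 by -1.25.

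**Figure D5:**
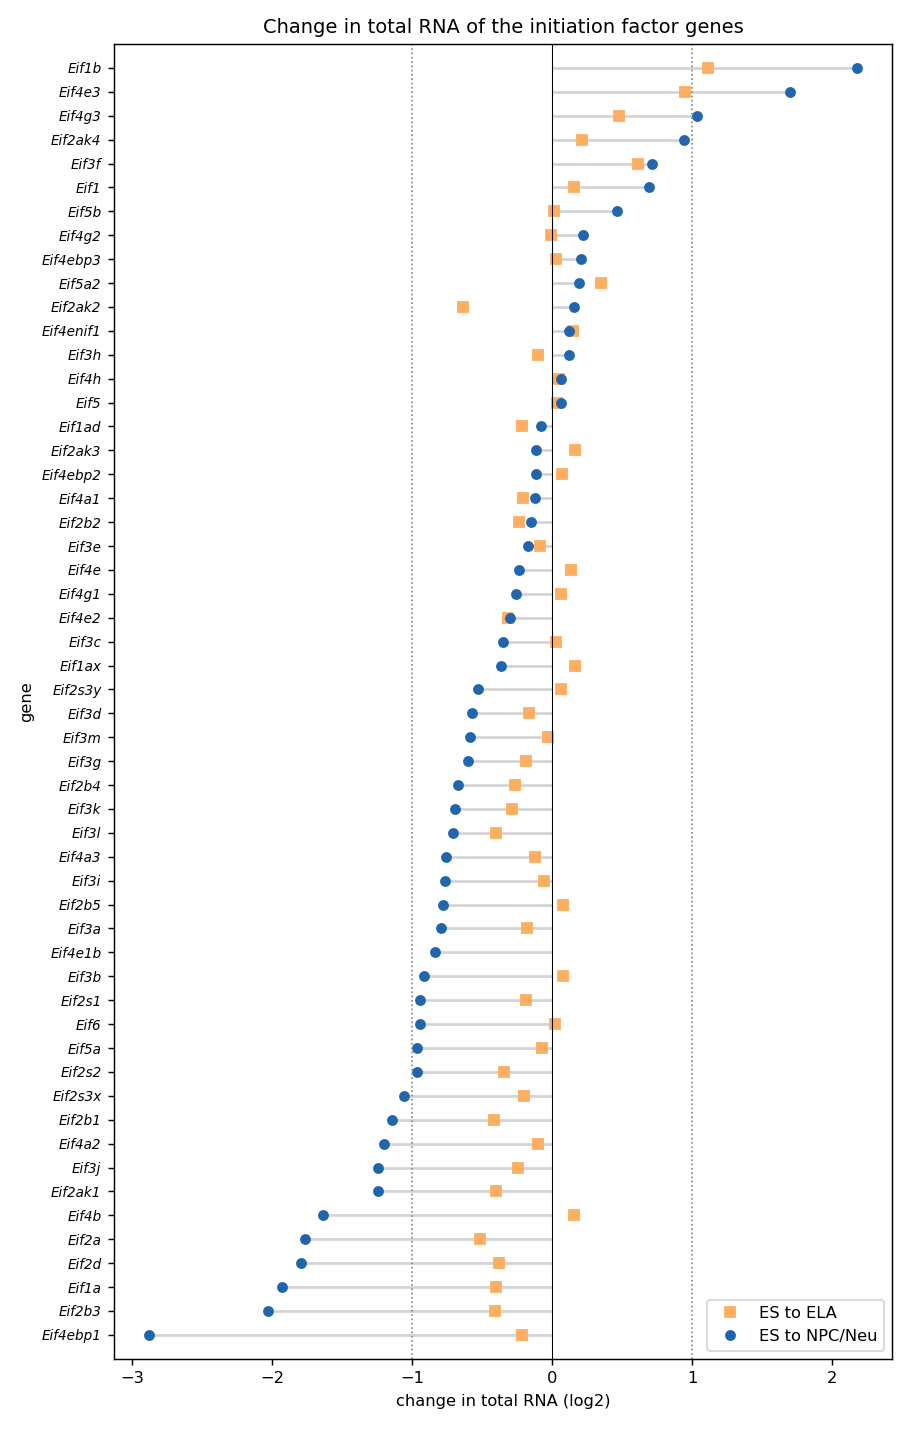
Change in total RNA (log2, x axis) of the 54 genes (y axis, ordered by the change from ES to NPC/Neu), with squares for ES to ELA and circles for ES to NPC/Neu, each from 1 array per stage, and dotted lines at 1 and -1. Most circles lie left of 0, Eif4ebp1 is at -2.88 and Eif1b at 2.18, while the squares lie near 0.

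Other genes of translation were listed by their pathway, and 38 of 38 were measured. In ES cells 12 of them had E of at least 1 (background 8.59%) and 3 of -1 or lower (9.75%). From ES to ELA E fell by at least 1 for 12 (5.92%) and rose for 3 (6.86%), with a median change of -0.25. With upper-quartile scaling E in ES cells was at least 1 for 9 (10.1%) and -1 or lower for 4 (26.1%), and 8 fell (10.3%) and 5 rose (19.6%), with a median change of -0.03. Among the poly(A)-binding partners of eIF4G the change ran from -1.59 for Pabpc4 to 1.04 for Paip2, which inhibits the poly(A)-binding protein. Among the accessory factors of initiation the ES–ELA change ran from -1.52 for the helicase Dhx29 to 1.31 for Mcts1, which works with Denr in reinitiation. In the mTOR and MNK list, whose kinases act on the eIF4E-binding proteins and on eIF4E, it ran from -1.73 for Mtor to 0.45 for Mknk1, and in the integrated stress response list from -1.79 for Gcn1l1, the activator of GCN2, to 0.43 for Atf4. Elongation genes ran from -1.10 for Eef2 to 0.35 for Eef1b2, and termination and recycling genes from -1.21 for Gspt1 to -0.15 for Etf1. In ELA no gene of these lists was at 1 or above (3.26%) or at -1 or lower (2.94%), and in NPC/Neu 13 were at 1 or above (9.67%) and 4 at -1 or lower (10.3%). In total RNA from ES to NPC/Neu 2 of the 38 rose by at least 1 (14.9%) and 8 fell (14.8%), or 16 with upper-quartile scaling (26.7%), with a median of -0.33 under quantile normalization, which compares with -0.55 for the initiation factor genes.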

How the data were processed

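The authors deposited, per array, the spot intensity written by the scanner software: mean intensity, local background and a processed intensity, none normalized between arrays. The file headers name Feature Extraction 10.7.3.1, and the submitters' processing notes name version 9.1 and limma. The labels state that 50 ng of RNA was labeled. Here the mean intensity was corrected with normexp (offset 50) in limma 3.58.1 (R 4.3.3), with irregular spots and controls dropped, then log2 transformed, quantile normalized across the 8 arrays and averaged over repeated spots. Probes well above background on at least 1 array were used (28270 genes), and a gene's value is the mean of its probes' contrasts. The offset makes changes of dim probes smaller, and equal distributions hide differences in RNA recovery. T1 was fitted with mclust 6.1.1. A change was called at 1 or more in size, with no test, since each condition has 1 array. The number of arrays limits precision.

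Probes were placed by their sequence in GENCODE vM1 transcripts of mm9. Near matches of initiation factor probes in transcripts of other genes were sought with blastn 2.17.0. Against the genome, 69 of 79 initiation factor probes matched in full, 8 spanned a splice junction and 2 did not match. Of 79 probes, 75 were well above background on all 8 arrays and 0 were saturated. Named were, per role, the genes with the highest and lowest E in ES cells, those with a change of at least 1, those whose probes differed by over 1, and listed paralogs; the remaining members are given with their values. The genes and lists were chosen with earlier results of these data known. The alternatives were offsets of 16 and 0, the software's own processed intensity (quantile normalized, or divided by each array's upper quartile), separate normalization of Ago–RNA and total RNA arrays, other probe filters, and the brightest probe per gene. The procedure was tested on simulated data. Analyses used Python 3.11.15, numpy 2.4.6, pandas 2.3.3 and scipy 1.17.1.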

Additional observations from a re-analysis of the deposited data

Results flagged for a closer look

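The Ago enrichment of Eif3f lay beyond 3 spot SD on opposite sides of 0 at different stages, at 0.83 in NPC and -0.89 in NPC/Neu. The difference of 1.72 between these stages was not tested, since each stage has 1 array of Ago–RNA and 1 of total RNA, and it rests on 1 probe that spans a splice junction in the coding sequence.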

How the results depend on the processing

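Values of single genes were recomputed under the alternatives for E in ES cells and NPC/Neu and for its ES–ELA and NPC to NPC/Neu changes. The total RNA change from ES to NPC/Neu was also recomputed. Of these 2143 values, 1877 moved by less than the spot SD and 266 by more. Of values at least 1 in size, 1 changed sign, E of Eif3d in ES cells, at -0.13 with upper-quartile scaling. Of smaller values 69 did, 45 of them by more than the spot SD. E in ELA and E in NPC were not among these values. With the RNA kinds normalized apart, E changed sign for 14 of 53 genes in ELA and for 10 of 54 in NPC. Under upper-quartile scaling it did so for 5 and 4 genes. The medians with this scaling were -0.17 for E in ES cells, -0.60 for the total RNA change from ELA to NPC and -1.18 for that from ES to NPC/Neu. The corresponding medians of all genes were -0.38, -0.20 and -0.17. The counts of genes at -1 or lower were then 9 for E in ES cells (main value 1), 4 for E in NPC/Neu (7), 3 for the ES–ELA change in E (8), 1 for the NPC to NPC/Neu change in E (2), and 9 (2) and 32 (11) for the same total RNA changes. The shares of all genes were 26.1%, 23.5%, 10.3%, 12.1%, 16.9% and 26.7% in the same order. The counts at 1 or above were 2 for E in ELA (0), 3 for the ES–ELA change in E (0), 2 for the NPC to NPC/Neu change in E (1) and 2 for the ES–ELA change in total RNA (1). Among all genes these shares were 5.76%, 19.6%, 6.57% and 9.66%. With Ago–RNA and total RNA arrays normalized apart, the median E was 0.53, 0.22, 0.19 and 0.30 at the 4 stages, against all-gene medians of 0.11, 0.11, 0.12 and 0.12. There were then 15, 3 and 7 genes with E of at least 1 in ES, ELA and NPC, where 13.7%, 6.29% and 9.06% of all genes were. In ELA, NPC and NPC/Neu 0, 0 and 1 had E of -1 or lower, against 2.64%, 3.61% and 7.77% of all genes. One gene was at -1 or lower for the NPC to NPC/Neu change in E (3.85% of all genes) and 1 for the ELA–NPC change in total RNA (8.6%). With the processed signal quantile normalized, 2 genes had E of -1 or lower in ES cells (15.9% of all genes). In ELA 2 had E of at least 1 (9.55%) and 0 of -1 or lower (8.72%). From NPC to NPC/Neu 3 rose in E (8.97%) and 1 fell (9.89%). In total RNA 2 rose from ES to ELA (9.98%) and 4 fell from ELA to NPC (15.2%). Offsets of 16 and 0 gave 2 genes that rose in total RNA from ES to ELA, and the brightest probe per gene gave 2 genes with E of -1 or lower in ES cells. The causes were not tested. No replicate could be left out, and no paired analysis was possible because each condition has 1 array. Signal over background limited Eif4e1b, Eif5b and a probe of Eif2s3x.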
